A study of Homo sapiens with 2 samples.

Results

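The genes described here are those of the major histocompatibility complex (MHC) on the short arm of human chromosome 6 that do not present antigen. They were chosen by a coding start inside the MHC region, where they run from TRIM27 at position 28904070 to DAXX at position 33318743 (GRCh38), and on measured values, an expected count of at least 100 in the higher of the 2 libraries. Genes of antigen presentation (names starting with HLA-, TAP1, TAP2 and TAPBP), MICA, MICB and a few others were left out by name. The deposited table lists 29972 genes, of which 268 start in the region. The rule kept 100 of them, left out 41 by name (23 at or over 100 counts and 18 under) and left out 127 more for counts under 100. The rule kept PSMB8 and PSMB9, which cut peptides for class I presentation, so 2 members do belong to that pathway.

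Messenger RNA was sequenced from 2 subcutaneous tumours of NCI-N87, an established human gastric carcinoma line in which ERBB2, the gene of HER2, is amplified. Hosts were nude mice, which lack T cells of their own. The untreated tumour had received no drug, and its age is not stated. The refractory tumour came from a mouse given T-DM1 (trastuzumab emtansine, a HER2 antibody carrying a microtubule poison) every 3 weeks for 18 weeks. Whether a library holds 1 animal or several is not stated either. Each group is 1 library, 75722117 expected counts for the untreated and 59902704 for the refractory tumour, so no difference below has a replicate check and no test across samples was possible.

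The MHC region is among the most gene-dense stretches of the human genome. Its class I and class II ends carry the HLA genes, and the class III stretch between them holds complement, cytokine and heat shock genes. Housekeeping genes for chromatin, RNA processing and vesicle traffic are packed among them, often starting back to back from a shared promoter. In epithelial cells most of these housekeeping genes are active, whereas the cytokine genes are used mainly by leukocytes.

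Levels between the tumours are compared in CPM, a gene's share of the scaled library. The change is the log2 ratio of the refractory to the untreated level, each with 1 CPM added, so the change of low genes is understated. A gene was called higher or lower at 2-fold on that scale (log2 of 1 or more). Ratios are of plain CPM, with exact 95% intervals (Clopper-Pearson) that cover counting error only. Levels of different genes are compared only in FPKM, the authors' values per kilobase of gene.

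The 100 members stood mostly higher in the refractory tumour. Together they held 0.235% of the counts of the untreated and 0.469% of those of the refractory library. Of the 100, 50 were called higher, 4 lower and 46 between. Over all 13664 genes with at least 100 counts, 9.91% were called higher and 11.2% lower. The members' median log2 was 0.999, with quartiles of 0.59 and 1.27, and 87 of 100 lay above 0. The median over all such genes was 0.03, with quartiles of -0.41 and 0.44. The median member ratio was 2.16. Because the members were proposed with these changes known, these counts describe the group and test nothing. The 2-fold limit runs through the middle of the group: 15 members lay within 0.1 log2 of it, 9 above and 6 below, and with 5 CPM added in place of 1 the count of higher members was 28.

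**Figure D1:**
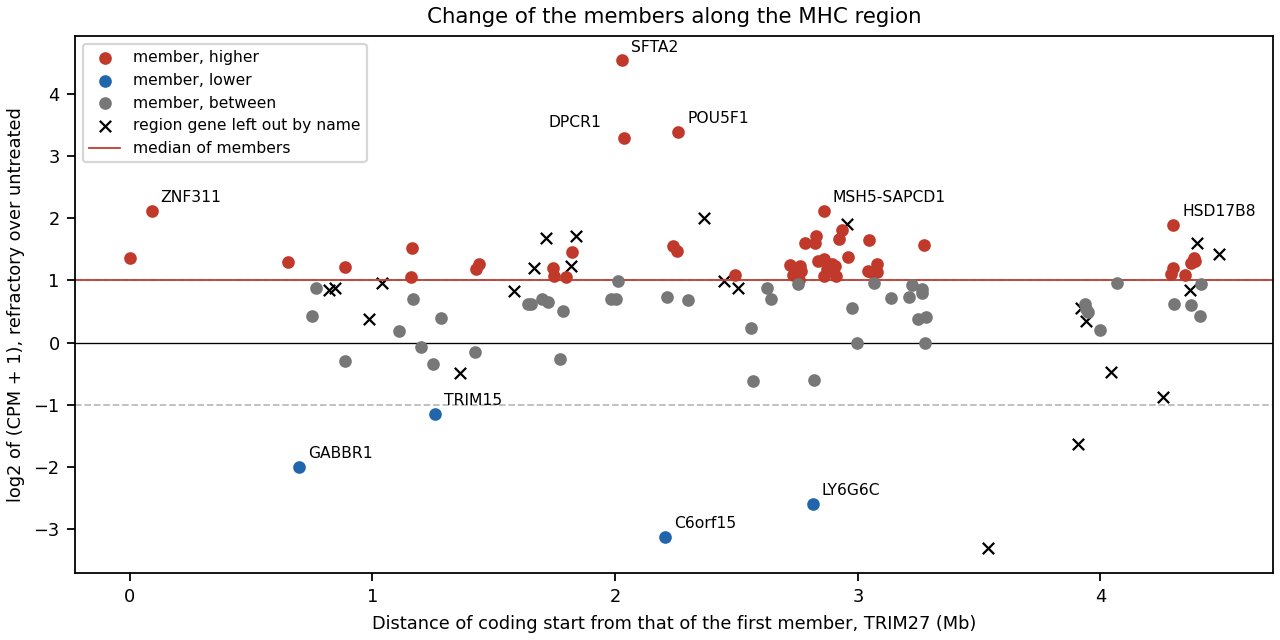
Change of each member along the region. The horizontal axis is the distance of the coding start from that of TRIM27 in Mb, the vertical axis log2 of CPM + 1, refractory over untreated. Points are the 100 members (red higher, blue lower, grey between), crosses the 23 region genes with at least 100 counts left out by name, and the red line the members' median of 0.999. The quartiles of the members are 0.59 and 1.27, with SFTA2, POU5F1 and DPCR1 far above and C6orf15, LY6G6C and GABBR1 far below.

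The difference extended over the region but was not of one size. Stretches are named by the HLA classes in their order along the chromosome. In the class III stretch 25 of 41 members were called higher and 1 lower, with a median log2 of 1.13. In the extended class II stretch 7 of 11 were higher and 0 lower (median 1.11). The class I stretch held 15 higher and 3 lower of 40 (median 0.70), and so 3 of the 4 lower members. All 3 members of the extended class I end, TRIM27, ZNF311 and UBD, were higher (median 1.36). In the class II stretch 0 of 5 were called in either direction, although all 5 lay above 0 (median 0.53). The longest run of neighbouring members above 0 was 17 genes, from PBX2 to DAXX, over 1.13 Mb. Differences between stretches were not tested.

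The genes that the rule leaves out by name stood close to the members. Of the 23 with at least 100 counts, 8 were called higher and 2 lower (median log2 0.88). All 9 class I related genes among them lay above 0, 2 called higher, with HLA-C at 75.9 and 306.5 CPM (untreated, then refractory, as in all pairs of values below). The 3 class II genes HLA-DRA, HLA-DOB and HLA-DMA all lay below 0, HLA-DRA at 9.57 and 0.0674 CPM, so the HLA genes of the class II stretch went the opposite way to their neighbours BRD2 and PSMB8.

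Genes of 6p outside the region were also shifted. Of 276 such genes with at least 100 counts, 86 were called higher and 13 lower (median log2 0.65). On 6q the median of 309 genes was -0.09, with 23 higher and 38 lower. In the 5 Mb after the region 28 of 51 genes were higher (median 1.09), and in the 5 Mb before it 10 of 45 (median 0.44). The upward shift was thus shared with much of 6p and is not particular to the MHC, and it was uneven along the arm. Between 45 and 50 Mb the median of 17 genes was -0.46.

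**Figure D2:**
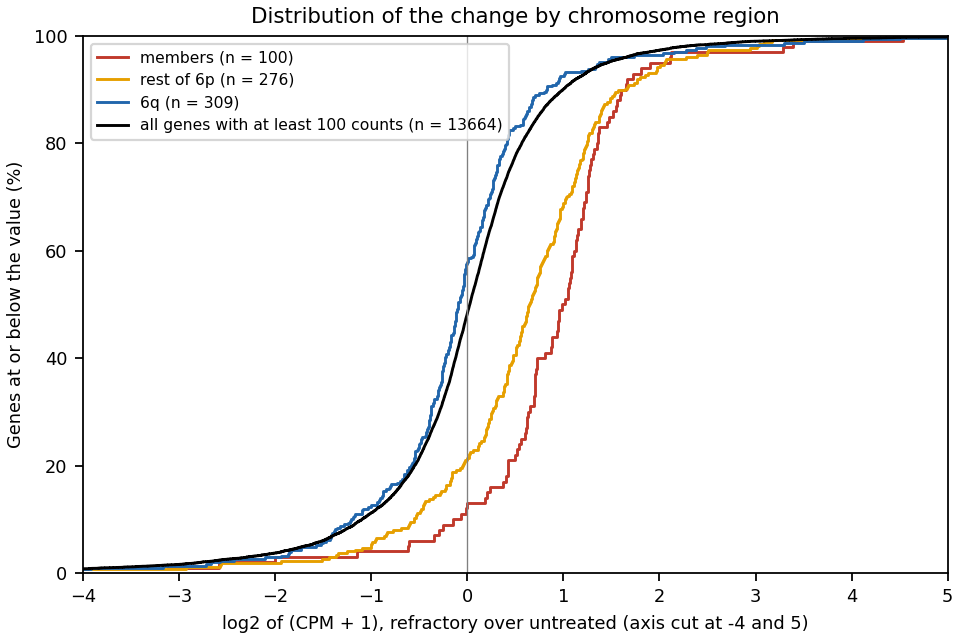
Cumulative share of genes (vertical axis, percent) at or below each log2 change of CPM + 1, refractory over untreated (horizontal axis, drawn from -4 to 5). Lines are the 100 members, 276 other genes of 6p, 309 genes of 6q and all 13664 genes with at least 100 counts. The line of the members lies to the right of the others over its middle part, with medians of 0.999, 0.65, -0.09 and 0.03 in that order.

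At the limits of the rule, the 3 members of lowest count were MOG (82 and 106 counts, untreated and refractory), HCG27 (58 and 109) and TNXB (63 and 118). Just under the limit were GPSM3 (20 and 98), PSORS1C2 (97 and 10) and C2 (84 and 32). Near genes beyond the ends with at least 100 counts were ZSCAN12, ZKSCAN3 and ZSCAN31 on one side (log2 0.17, 1.46 and -0.44) and PHF1 and CUTA on the other (1.38 and 0.70). The first 3 members inside were TRIM27, ZNF311 and UBD (1.36, 2.11 and 1.29), and the last 3 were RGL2, ZBTB22 and DAXX (1.31, 0.43 and 0.94).

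**Figure D3:**
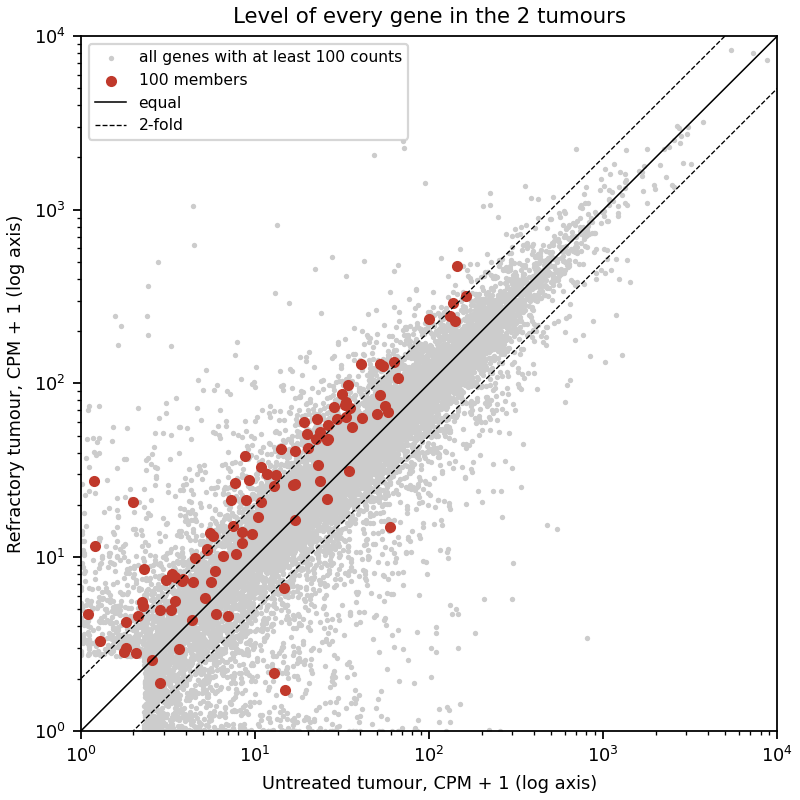
Level of every gene with at least 100 counts (grey) and of the 100 members (red) in the 2 tumours, as CPM + 1 on log axes. The solid line marks equal levels and the dashed lines 2-fold. The members lie along the upper dashed line from low to high levels, with 4 below the lower one.

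The largest changes at either end belonged to genes of epithelial surfaces in the class I stretch. SFTA2, a small secreted protein of lung and other epithelia (chromosome 6, 30931488 to 30932096), had 14 counts in the untreated and 1569 in the refractory tumour, or 0.183 and 26.5 CPM. It was near absent in one library and plainly expressed in the other, a ratio of 144 (95% interval 85.8 to 265). DPCR1, a mucin-like membrane protein named MUCL3 in RefSeq, starts just beyond it (30941000 to 30953117) and stood at 15 and 632 counts, or 0.196 and 10.7 CPM (ratio 54.3, 95% interval 32.7 to 97.6). C6orf15, a secreted protein known from skin and cornea (31111381 to 31112555), went the other way, with 1058 counts against 42, or 13.8 and 0.708 CPM. It was 19.5-fold lower in the refractory tumour (95% interval 14.4 to 27.3). CDSN, corneodesmosin, the adhesive protein of cornified skin, is the next member after C6orf15 and stood at 7.44 and 13.0 CPM, between the limits. Neighbouring genes of this stretch thus differed in opposite directions.

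LY6G6C, a GPI-anchored surface protein of the LY6 family in class III (31719096 to 31721679), was also called lower. It had 910 counts against 68, or 11.9 and 1.15 CPM, and was 10.4-fold lower (95% interval 8.11 to 13.5). LY6G5B, of the same family and in the same stretch, stood at 2.46 and 6.67 CPM and was called higher. C6orf25, an inhibitory receptor of platelets (MPIG6B in RefSeq) next to LY6G6C, stood at 1.86 and 0.876 CPM, 2.12-fold lower as a plain ratio (95% interval 1.53 to 2.97) and under the limit once 1 CPM was added.

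The 250 bases upstream of the RefSeq start of these 4 genes are shown because their changes stand far from the median of the group. Capitals mark matches to any of 7 short motifs, searched on both strands: the core of the interferon-stimulated response element, TTCNNNGAA (gamma-activated site), the heat shock element, CCAAT (the box of that name), GGGGCGGGG (GC box), TGACGTCA (cyclic AMP response element) and ACGTG (core of the hypoxia response element). Sequences are from RefSeq, GRCh38.p14, read 5′ to 3′ on the strand of the gene.
SFTA2 (minus strand, chr6:30932171-30932420): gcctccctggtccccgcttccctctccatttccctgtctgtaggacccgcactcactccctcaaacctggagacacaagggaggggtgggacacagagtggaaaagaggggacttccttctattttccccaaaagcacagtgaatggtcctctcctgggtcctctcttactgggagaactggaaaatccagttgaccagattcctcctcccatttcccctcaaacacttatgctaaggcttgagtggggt
DPCR1 (plus strand, chr6:30940723-30940972): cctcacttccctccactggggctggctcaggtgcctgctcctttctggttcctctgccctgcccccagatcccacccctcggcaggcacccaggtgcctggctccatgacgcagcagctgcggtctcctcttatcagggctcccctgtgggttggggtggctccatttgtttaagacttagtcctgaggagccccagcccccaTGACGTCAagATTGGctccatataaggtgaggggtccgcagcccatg
C6orf15 (minus strand, chr6:31112576-31112825): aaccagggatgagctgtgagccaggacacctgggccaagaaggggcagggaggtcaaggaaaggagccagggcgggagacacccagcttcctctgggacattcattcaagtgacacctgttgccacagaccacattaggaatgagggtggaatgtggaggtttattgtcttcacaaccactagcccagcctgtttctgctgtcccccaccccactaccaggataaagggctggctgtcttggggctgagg
LY6G6C (minus strand, chr6:31721747-31721996): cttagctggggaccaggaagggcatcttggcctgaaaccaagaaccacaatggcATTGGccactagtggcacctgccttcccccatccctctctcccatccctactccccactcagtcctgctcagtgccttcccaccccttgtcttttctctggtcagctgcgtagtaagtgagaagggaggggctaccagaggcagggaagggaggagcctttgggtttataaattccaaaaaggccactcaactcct

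Of these 4 windows, that of DPCR1 held a cyclic AMP response element starting 47 bases and a CCAAT box starting 37 bases upstream of the gene's start, and that of LY6G6C a CCAAT box starting 196 bases upstream. The windows of SFTA2 and C6orf15 held none of the 7 motifs. Over all 35116 promoters in the table, 1.65% held TGACGTCA, 32.0% CCAAT, 18.5% ACGTG and 15.1% GGGGCGGGG in the same window. Of 89 members with a promoter in the table, 4 held TGACGTCA, 40 CCAAT, 16 ACGTG and 15 GGGGCGGGG. The interferon-stimulated response element core was in 8 of the 89 (ZFP57, PPP1R11, TRIM26, DDR1, CFB, TAPSAR1, WDR46 and PFDN6) and 3.02% of all, TTCNNNGAA in 5 and 6.57%, and the heat shock element in 0 and 0.441%. The matches in capitals do not overlap each other. A match is a string of letters, not a bound site. The heat shock element was searched as a fixed pattern with no mismatch allowed, and variants of it were not counted. The 0 therefore does not show that heat shock elements are absent from member promoters, those of HSPA1A and HSPA1B included.

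Heat shock and chaperone genes were nearly all higher, 5 of 6 called, 0 lower, with a median log2 of 1.16. HSPA1A, the main stress-inducible HSP70 chaperone (31815757 to 31817682), stood at 137 and 289 CPM (ratio 2.11, 95% interval 2.06 to 2.16). Its copy HSPA1B (31827951 to 31829876) stood at 39.7 and 128 CPM (ratio 3.23, 95% interval 3.09 to 3.37). Both genes were thus higher, by unequal factors. Their longest open reading frames differ at 4 of 1926 positions (99.8% identity, GENCODE 29 transcripts), so reads can be divided between them and the split is uncertain. Summed, the pair stood at 176 and 417 CPM, a ratio of 2.36 (95% interval 2.31 to 2.41). HSPA1L, a testis-enriched HSP70 that starts back to back with HSPA1A at 80.9% identity, stood at 0.811 and 3.25 CPM (ratio 4.01, 95% interval 2.999 to 5.43).

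The upstream windows of the HSP70 pair are shown because the similarity of these copies reaches beyond their coding sequence. They differ at 16 of 251 aligned positions (93.6% identity), and both hold CCAAT boxes, read on the opposite strand as ATTGG, starting 153 and 69 bases upstream in HSPA1A and 152 and 68 bases upstream in HSPA1B.
HSPA1A (plus strand, chr6:31815293-31815542): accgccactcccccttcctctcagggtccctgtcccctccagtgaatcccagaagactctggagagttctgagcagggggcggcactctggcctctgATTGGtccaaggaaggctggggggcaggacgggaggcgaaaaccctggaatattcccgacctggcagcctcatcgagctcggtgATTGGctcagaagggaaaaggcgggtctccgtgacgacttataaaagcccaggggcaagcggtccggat
HSPA1B (plus strand, chr6:31827488-31827737): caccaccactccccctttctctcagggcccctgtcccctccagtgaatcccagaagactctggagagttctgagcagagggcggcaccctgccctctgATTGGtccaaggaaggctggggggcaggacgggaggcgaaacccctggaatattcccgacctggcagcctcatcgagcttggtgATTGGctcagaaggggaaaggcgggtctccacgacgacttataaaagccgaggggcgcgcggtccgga

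The other chaperones moved by similar amounts. BAG6, which shields membrane proteins bound for the endoplasmic reticulum or for degradation, stood at 61.8 and 132 CPM (ratio 2.14, 95% interval 2.06 to 2.22). PFDN6, a subunit of the prefoldin chaperone for actin and tubulin, stood at 10.7 and 28.9 CPM (ratio 2.71, 95% interval 2.49 to 2.95). FKBPL, an HSP90 cochaperone, stood at 2.80 and 6.24 CPM and was 2.23-fold higher as a plain ratio, but between the limits with 1 CPM added.

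Chromatin and transcription genes formed the largest group, with 13 of 28 called higher, 0 lower and a median log2 of 0.95. The list also holds a few genes of other roles placed beside them. POU5F1, the pluripotency factor OCT4 (31164601 to 31165942), had the highest log2 in it, with 76 counts against 1180, or 0.994 and 19.9 CPM, a ratio of 20.0 (95% interval 15.9 to 25.6). POU5F1 has processed pseudogenes elsewhere in the genome, so its count is uncertain. ZNF311, a zinc finger gene at the extended class I end (28995001 to 28999520), had 7 counts against 221, or 0.0916 and 3.73 CPM (ratio 40.7, 95% interval 19.4 to 102), so by plain ratio it exceeded POU5F1. NELFE, a subunit of the complex that holds RNA polymerase II near promoters, stood at 18.1 and 59.0 CPM (95% interval of the ratio 3.06 to 3.47).

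Less abundant or moderately changed regulators filled the rest of the group. CCHCR1, a coiled-coil protein known from the psoriasis locus, stood at 6.28 and 20.3 CPM, and its back-to-back neighbour TCF19 at 21.6 and 61.7 CPM. PPP1R11, an inhibitor of protein phosphatase 1, stood at 33.2 and 96.9 CPM. RXRB, the retinoid X receptor beta, stood at 21.2 and 46.99 CPM and MDC1, a scaffold of the DNA damage response, at 34.1 and 71.6 CPM. The mismatch repair family gene MSH5, used in meiosis, stood at 4.49 and 12.7 CPM, WDR46, a nucleolar protein, at 15.9 and 40.0 CPM, and ZNRD1, an RNA polymerase I subunit, at 4.29 and 9.96 CPM. These and SAPCD1 (0.288 and 2.27 CPM) and STK19 (3.49 and 8.87 CPM) complete the 13.

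The most abundant member of that group per length was BRD2, a bromodomain reader of acetylated histones (32972899 to 32980718), with 51.6 and 98.9 FPKM. In CPM it stood at 163 and 317, a ratio of 1.95 (95% interval 1.90 to 1.99), just short of the limit. DAXX, a histone H3.3 chaperone, was equally close at 32.3 and 62.9 CPM (ratio 1.95, 95% interval 1.85 to 2.05). RING1, the ubiquitin ligase of Polycomb complex 1, stood at 16.02 and 25.2 CPM and EHMT2, the H3K9 methyltransferase G9a, at 21.99 and 32.9 CPM. Smallest among the coding genes were PBX2, a homeodomain cofactor, at 49.0 and 65.9 CPM, and ZBTB12 at 1.57 and 1.55 CPM. The noncoding RNAs HCG18 (33.6 and 30.2 CPM) and HCG4 (2.65 and 1.97 CPM) lay below 0. ZFP57, ATF6B, PPP1R10, GTF2H4, HCG27, PRR3 and ZBTB22 lay between 0.43 and 0.88 log2.

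RNA processing and translation genes stood close together: all 12 lay above 0, 8 were called higher, and 11 lay within 0.5 log2 of their median of 1.102. C6orf48, a host gene of small nucleolar RNAs (SNHG32 in RefSeq), was highest by change, at 6.62 and 25.6 CPM (ratio 3.88, 95% interval 3.50 to 4.30). LSM2, a subunit of the ring that binds U6 snRNA and of the decay ring, stood at 7.89 and 20.3 CPM (ratio 2.58, 95% interval 2.33 to 2.84). RPP21, a protein of ribonuclease P, stood at 2.34 and 6.995 CPM (ratio 2.99, 95% interval 2.50 to 3.58). Also called were PRRC2A (98.1 and 235 CPM), VARS, the cytosolic valyl-tRNA synthetase (31.8 and 73.7 CPM), SKIV2L, the helicase of the exosome's Ski complex (25.2 and 56.2 CPM), DHX16, a splicing helicase (19.2 and 41.6 CPM), and GPANK1 (6.43 and 14.0 CPM).

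The group's most abundant member per length was DDX39B, the helicase UAP56 of splicing and mRNA export (31530434 to 31540532), with 73.2 and 133.9 FPKM. In CPM it stood at 131 and 243, a ratio of 1.85 (95% interval 1.81 to 1.90), between the limits. VARS2, the mitochondrial valyl-tRNA synthetase, stood at 11.9 and 24.6 CPM, DXO, which removes faulty mRNA caps, at 2.85 and 6.46 CPM, and GNL1, a GTP-binding protein, at 35.2 and 54.9 CPM. The first 2 passed 2-fold as plain ratios only.

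Membrane traffic and signalling genes included the most abundant member of all. CLIC1, an intracellular chloride channel and redox protein (31730842 to 31736300), stood at 154 and 507 FPKM. In CPM it went from 143 to 475, a ratio of 3.31 (95% interval 3.24 to 3.38). FLOT1, a scaffold protein of lipid rafts, stood at 30.7 and 85.8 CPM (ratio 2.79, 95% interval 2.66 to 2.93). RGL2, an effector of RAS-family GTPases, stood at 50.9 and 128 CPM (ratio 2.51, 95% interval 2.41 to 2.61). CSNK2B, the regulatory subunit of casein kinase 2 (32.1 and 76.7 CPM), and VPS52, a tethering factor for endosome-to-Golgi transport (28.3 and 61.3 CPM), were also called.

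GABBR1 was the exception of that group. It encodes a subunit of the GABA-B receptor (29603543 to 29627791) and stood at 58.3 and 13.9 CPM, 4.21-fold lower in the refractory tumour (95% interval 3.91 to 4.54). DDR1, a collagen receptor tyrosine kinase of epithelia, stood at 140 and 228 CPM, between the limits (ratio 1.62, 95% interval 1.58 to 1.67), as did NRM (4.85 and 7.37 CPM) and C6orf47 (9.77 and 19.7 CPM). In total 5 of 9 were higher and 1 lower (median 1.09).

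Metabolic enzymes and transporters all lay above 0, with 5 of 9 called and a median of 1.201. HSD17B8, an enzyme of mitochondrial fatty acid synthesis that also oxidises estradiol (33204669 to 33206654), stood at 1.29 and 7.55 CPM (ratio 5.83, 95% interval 4.68 to 7.33). ABHD16A, a phosphatidylserine lipase, stood at 9.85 and 31.8 CPM (ratio 3.23, 95% interval 2.97 to 3.52). DDAH2, of the family that degrades methylarginines, stood at 8.25 and 26.9 CPM (ratio 3.264, 95% interval 2.97 to 3.58). SLC44A4, a choline-like transporter of epithelia, stood at 27.3 and 72.3 CPM. SLC39A7, the zinc exporter of the endoplasmic reticulum and the most abundant of the group per length in the refractory tumour (60.5 FPKM, against 26.1 FPKM in the untreated), stood at 53.6 and 124.5 CPM. AGPAT1, ATAT1, B3GALT4 and PPT2 lay between 0.38 and 0.87 log2.

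Ubiquitin ligases of the TRIM and RING families split. RNF5, a ligase of the endoplasmic reticulum, stood at 13.2 and 40.8 CPM (ratio 3.10, 95% interval 2.88 to 3.34), and TRIM27 at 18.9 and 49.9 CPM (ratio 2.65, 95% interval 2.48 to 2.82). TRIM39 stood at 12.1 and 28.9 CPM (ratio 2.38, 95% interval 2.198 to 2.58). TRIM15, in a cluster with TRIM10, TRIM26, TRIM31 and RNF39, was 2.43-fold lower (13.6 and 5.60 CPM, 95% interval 2.15 to 2.76). Its neighbours were TRIM10 at 4.96 and 3.68 CPM, TRIM31, an intestinal ligase, at 16.02 and 15.2 CPM, TRIM26 at 55.0 and 72.9 CPM and RNF39 at 2.45 and 4.62 CPM. None of these 5 was called higher, while TRIM39, just beyond TRIM26, was. The group held 3 higher and 1 lower of 8 (median 0.55).

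The complement genes CFB and C4A of class III were called higher, while C2, under the count minimum, had 84 counts against 32. CFB, factor B of the alternative pathway (31946222 to 31952030), stood at 22.6 and 51.3 CPM (ratio 2.27, 95% interval 2.14 to 2.41). C4A, the complement component C4 of the classical and lectin pathways, stood at 2.07 and 6.39 CPM (ratio 3.09, 95% interval 2.56 to 3.75). Its copy C4B, with 13.1 and 74.7 counts, fell under the count minimum. The 2 reading frames differ at 13 of 5235 positions (99.8% identity), so the split is uncertain, and the sum was 2.24 and 7.65 CPM (ratio 3.42, 95% interval 2.86 to 4.10). Other secreted or surface proteins of the list were between, with TNXB, a tenascin, at 0.824 and 1.99 CPM, MOG, a myelin protein, at 1.07 and 1.79 CPM, and AGER, the receptor of glycation end products, at 3.35 and 3.34 CPM. With LY6G6C, LY6G5B and C6orf25 above, the list held 3 higher and 1 lower of 8 (median 0.57).

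The immunoproteasome members and the short list of TNF cluster and leukocyte genes mostly lay between the limits. The immunoproteasome subunits PSMB8 (40.1 and 61.9 CPM, ratio 1.54, 95% interval 1.47 to 1.62) and PSMB9 (8.66 and 12.6 CPM, ratio 1.46, 95% interval 1.31 to 1.62) were not called, nor was the antisense RNA TAPSAR1 beside them (7.38 and 11.1 CPM), whose reads may overlap those of its neighbours. The noncoding RNA HCP5 stood at 57.3 and 67.6 CPM and NFKBIL1 at 3.40 and 6.17 CPM. UBD, the ubiquitin-like modifier FAT10 that interferon gamma and TNF induce, was called higher at 1.24 and 4.48 CPM (ratio 3.61, 95% interval 2.84 to 4.61). The difference of these genes from other members was not tested.

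Members not on any role list, and those of unknown function, followed the same range. The read-through transcript MSH5-SAPCD1 stood at 7.78 and 37.3 CPM (ratio 4.79, 95% interval 4.37 to 5.25). It shares exons with MSH5 and SAPCD1, and MSH5 held 36.6% of the summed MSH5 and MSH5-SAPCD1 counts in the untreated and 25.4% in the refractory library. VWA7 (4.32 and 10.1 CPM), C6orf136 (4.72 and 12.2 CPM), LOC554223 (1.26 and 4.25 CPM) and LOC101929072 (1.14 and 3.56 CPM) were called higher. PPT2-EGFL8 (1.83 and 3.94 CPM), LOC100294145 (22.6 and 26.3 CPM) and HCG8 (4.12 and 4.80 CPM) were between. PPP1R18, an actin-bound phosphatase subunit (24.9 and 20.7 CPM), and the noncoding HCG26 (5.98 and 3.56 CPM) lay below 0. In all 23 members had counts that are not whole, which marks reads divided between genes, and the 77 with whole counts held 36 higher and 4 lower (median 0.94).

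Genes that start back to back offer a view of neighbours with close start sites. Within the region 10 such pairs with starts at most 1000 bases apart include a member, and 7 consist of 2 members. All 10 pairs lay above 0 on both sides, and the median gap between partners was 0.16 log2. RXRB and SLC39A7, 14 bases apart, stood at 1.11 and 1.201 log2, GNL1 and PRR3, 220 bases apart, at 0.63 and 0.62, CCHCR1 and TCF19 at 1.55 and 1.47, and WDR46 and PFDN6 at 1.28 and 1.36. PPP1R10 and MRPS18B had the widest gap (0.71 and 1.69). Some of these partners overlap or share reads, and their gap was not compared with that of other neighbours.

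The interval between NELFE and SKIV2L is shown as an example of such a shared start region. Its 203 bases lie between the starts of the pair (log2 1.65 and 1.13) and held 1 GC box starting 53 bases upstream of SKIV2L, in capitals.
NELFE to SKIV2L (plus strand, chr6:31958972-31959174): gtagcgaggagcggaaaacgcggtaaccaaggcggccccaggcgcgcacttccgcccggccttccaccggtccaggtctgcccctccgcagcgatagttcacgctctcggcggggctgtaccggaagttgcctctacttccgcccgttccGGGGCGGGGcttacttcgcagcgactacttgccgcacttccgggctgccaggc

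Many members are one subunit of a complex, or one of a family, whose other genes lie on other chromosomes or elsewhere on chromosome 6. In 27 such sets 33 members had 150 partners outside the region with at least 100 counts. The members held 21 higher and 0 lower (median log2 1.11), the partners 8 higher and 18 lower (median -0.04). All 33 of these members lay above 0 (lowest 0.498), so no member below 0 was given a set. The 0 lower follows from that choice, and the set medians below share this limit. The member median was above the partner median in 26 of 27 sets. Thus CSNK2B stood at 32.1 and 76.7 CPM while the catalytic subunits CSNK2A1 and CSNK2A2 stood at 241 and 186 CPM and at 34.0 and 25.3 CPM. PFDN6 had a log2 of 1.36, and the 5 other prefoldin genes lay between -0.37 and 0.21. LSM2 was at 1.26 against a median of 0.17 over 7 partners, and SKIV2L at 1.13 against -0.08 for TTC37 and 0.09 for WDR61.

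Families showed the same arrangement. BRD2 had a log2 of 0.96 while BRD3 had -0.22. Among HSP70 genes, HSPA8, the constitutive form, stood at 3039 and 2726 CPM, and of 11 relatives outside the region 1 was higher (HSPA6, 0.549 and 3.94 CPM) and 2 lower. Of 12 complement genes elsewhere 5 were lower and 1 higher: C3, the component on which the complement pathways converge, stood at 4.46 and 0.219 CPM. By set median FLOT1 was the only exception, since FLOT2 on chromosome 17 stood at 25.4 and 73.0 CPM with a log2 of 1.49 against 1.45. Single partners exceeded members in other sets too. HSPA6 (log2 1.674) lay above HSPA1B (1.665), while 10 of the 11 HSP70 relatives lay below the lowest member. SLC39A5 (1.798) and SLC39A10 (1.267) lay above SLC39A7 (1.201), while 9 of 11 zinc transporter partners lay below it. SUV39H1 (0.584) lay above EHMT2 (0.561), with 4 of 5 partners below. PPP1R8 (0.755) lay above PPP1R10 (0.705), with 6 of 7 partners below. NELFA, on chromosome 4, was called higher along with NELFE (8.005 and 18.4 CPM), and so was DDAH1 with DDAH2 (105 and 247 CPM). The sets were drawn up with the members' shift known, and the differences were not tested.

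**Figure D4:**
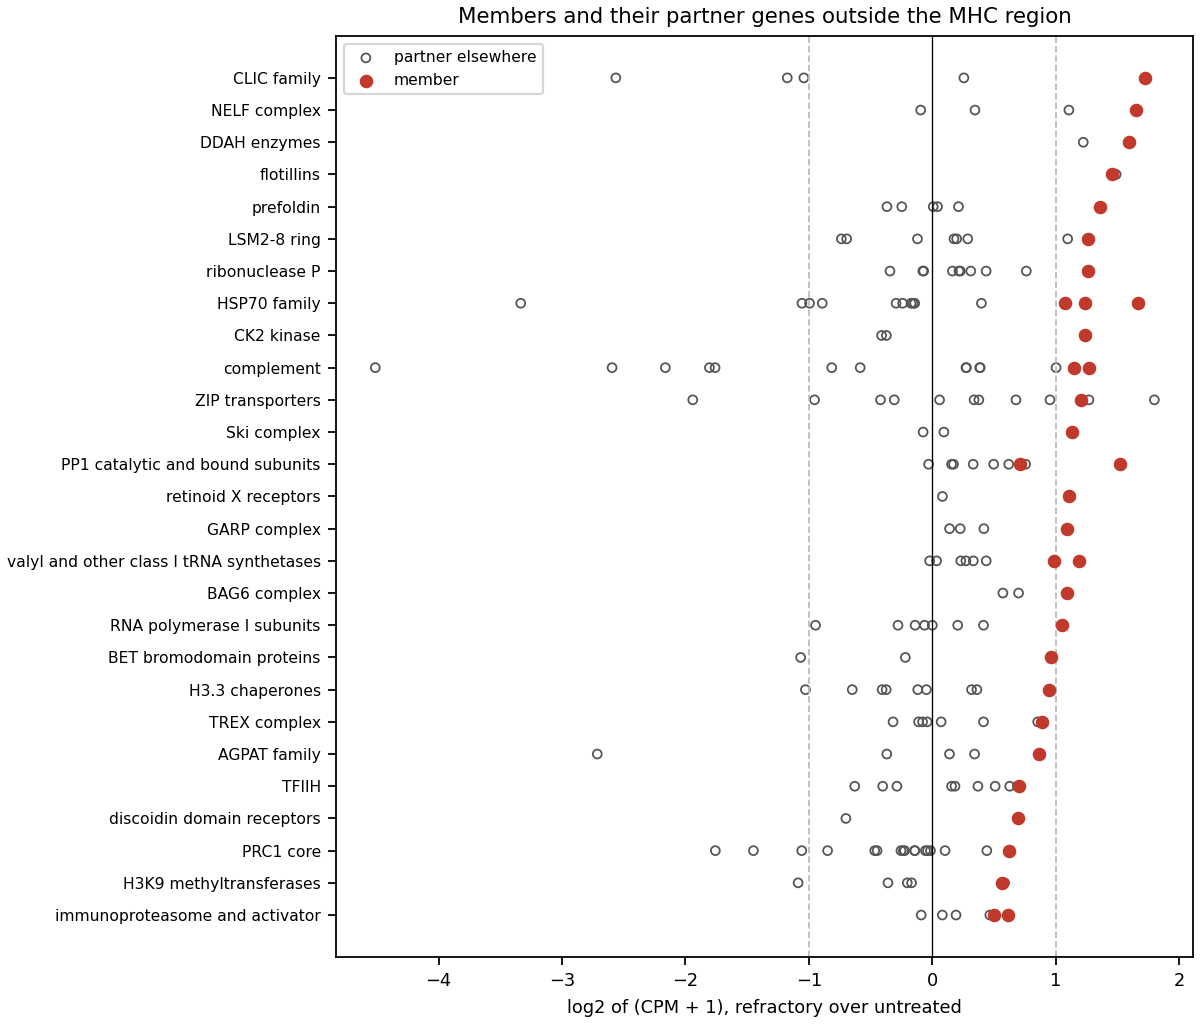
Members (red) and their partner genes outside the MHC region (open circles) in 27 complexes and families, by log2 of CPM + 1, refractory over untreated. Dashed lines mark 2-fold. The members lie to the right of most of their partners, which have a median of -0.04, except for the flotillins.

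In the authors' deposited table, 9 of the 100 members had p under 0.05, 7 higher and 2 lower, a share near that of all genes with at least 100 counts (9.02%). They were SFTA2, DPCR1, ZNF311, POU5F1, HSD17B8, SAPCD1, MSH5-SAPCD1, C6orf15 and LY6G6C. That p-value compares 2 libraries, and the many members near 2-fold do not reach it.

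The tumours expressed the markers of their epithelial line in both libraries, 7 of 7, none called in either direction. EPCAM stood at 471 and 785 CPM, KRT8 at 3204 and 1827 CPM, KRT18 at 1215 and 922 CPM and CLDN4 at 253 and 189 CPM. Among leukocyte markers, CD3E had 0 counts in both libraries, CSF1R 0 and 3, and PTPRC 5 and 17, while CD68 (3.62 and 29.2 CPM) and LYZ, which gastric epithelium also makes (27.2 and 95.9 CPM), were called higher. Of 4 endothelial and fibroblast markers COL3A1 had 0 counts in both libraries, and the other 3 were not called, with VWF at 106 and 12 counts. Cells of the host are mouse cells, so low counts of these human genes do not show how many such cells the tumours held. How reads of the mouse host were separated from human reads is not given in the labels. The part of these cells in the members' values was not tested. In bulk tissue, fewer cells of a type and less RNA per cell cannot be told apart. The members' change was weakly related to their transcripts' GC content (Spearman rho -0.15 over 95 genes), length (-0.12 over 100) and untreated level (-0.09 over 100), as a description across genes that share 2 libraries. Over all genes with at least 100 counts the values were 0.13, -0.18 and -0.14. The members' median GC content was 56.0% and median length 1939 bases, against 49.6% and 2623 bases over all such genes. With GC and length trends removed 38 of 95 members were called higher, against 48 of the same 95 before.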

How the data were processed

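Polyadenylated RNA of 1 untreated and 1 refractory tumour was measured. The authors deposited expected counts, estimated reads per gene that need not be whole, and FPKM per gene, with a log2 fold change and a p-value of 1 library against 1, per the file headers. Tools named in the submitters' processing notes are edgeR 3.26.8, RSEM 1.2.28, STAR 2.7.0e and bcl2fastq 2.20, with builds GRCh38 and GRCm38. Their roles, the annotation, the filters and the handling of mouse reads were not given in the sources used here. From the values, the authors' deposited log2 fold change differed by at most 0.00387 from the TMM-scaled ratio over genes above 50 reads in both libraries.

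Counts were rounded and scaled by TMM (edgeR 4.0.16, R 4.3.3; factors 1.0097 untreated, 0.9904 refractory) over all genes. A count of 100 equals 1.31 and 1.69 CPM. Deposited coding starts were found to count from 0 against GENCODE 29 and are printed counted from 1. The members, role lists, partner sets and motifs were chosen with earlier results of these data known. Ratios are given for at most the 3 largest called changes in each direction per role. They are also given for the near-identical pairs and for the most abundant member by FPKM of most roles (not for SLC39A7, HCP5 and C6orf136). DAXX, one of the last 3 members inside the end limit of the rule, has a ratio too. BAG6, FKBPL, C6orf25, DDR1 and PSMB9 were added after their values were seen. Reads carry no molecular identifiers, so intervals cover counting error only. The computation was tested on simulated data. Alternatives were other scalings, pseudocounts, count minimums, thresholds, FPKM, GC and length trends removed, and near-identical copies left out. A few genes outside the members are not reported here.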

Additional observations from a re-analysis of the deposited data

How the results depend on the processing

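No paired analysis was possible because each group is 1 library with no replicate number, and leaving out a replicate was not possible. The members' median log2 stayed between 0.87 and 1.11 under 3 other scalings, a pseudocount of 0.1 CPM, FPKM, a higher minimum count, GC and length trends removed, or members with near-identical copies or counts that are not whole left out (the last added after the data were seen). It was 0.69 with 5 CPM added and 0.70 with no minimum count. Under the 3 scalings 49 to 50 members were called higher, and all of them were among the 50. With 5 CPM added 28 were higher, and at 4-fold 5 were higher and 2 lower. The extended class I stretch, of 3 members, had a median of 1.77 with 0.1 CPM and 0.78 with 5 CPM added, and -0.019 with no minimum count, where genes of a few reads enter. With 5 CPM added the medians were 0.545 in class I, 0.740 in class III and 0.992 in extended class II. With GC and length trends removed they were 0.361 in class II and 0.943 in extended class II. Then 38 of 95 members were higher, against 48 of the same 95 before, and the cause was not tested. No scaling moved the median of all genes by over 0.1. Low counts limit members such as ZNF311, SFTA2 and DPCR1, whose untreated level rests on 7, 14 and 15 reads.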

Other observations

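The 127 region genes under 100 counts and not left out by name were mostly silent: 90 had 0 counts in both libraries, 17 had at most 10 and 20 had more. Several leukocyte genes of class III were among the silent ones. AIF1 and LST1, of macrophages, LTB, a lymphocyte cytokine, and NCR3, a receptor of natural killer cells, had 0 counts in both tumours, which allows up to 0.0392 CPM (untreated) and 0.0506 CPM (refractory) at a floor of 3 counts. TNF had 5 and 2 counts and LTA 8 and 2. A shift of these 6 genes was not detectable at this depth. GPSM3, a G protein regulator of leukocytes, had 20 and 98 counts, or 0.262 and 1.65 CPM. The complement gene C2, next to CFB, had 84 counts in the untreated and 32 in the refractory tumour, against the direction of CFB and C4A. PRRT1, a synaptic membrane protein, had 46 and 6 counts, and PSORS1C2, near CDSN, had 97 and 10.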
